A study of Mus musculus with 6 samples.

Results

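The genes described here are the ligands and receptors of the TNF superfamily, followed in bone marrow cells that had lost Brd9 and in control cells. Members were chosen by symbol alone, as Tnf, Lta, Ltb, Ltbr, Fas, Fasl, Cd27, Cd40, Cd40lg, Cd70 and every symbol that starts with Tnfsf or Tnfrsf followed by a number and any letters. The rule found 41 of the 24411 genes counted, 17 ligands and 24 receptors, and superfamily members with other symbols, such as Eda and Relt, fall outside it. The study asked how loss of Brd9, a bromodomain subunit of the non-canonical BAF chromatin remodelling complex, alters hematopoietic stem and progenitor cells. RNA-seq of poly(A)-selected RNA was performed on 3 Brd9 KO libraries (CD45.2(+) Mx1-Cre Brd9fl/fl) and 3 control libraries (CD45.2(+) Brd9fl/fl), all from C57BL/6 mice. Both groups carried the floxed Brd9 allele and received 3 injections of pIpC, a double-stranded RNA mimic, at 20 mg/kg, begun 4 weeks after transplantation in the labels and 4 weeks after birth in the series design, and cells were prepared 8 weeks later. The study's results describe the mice of this RNA-seq as 4 months old. Mx1-Cre is switched on by interferon and acts in many tissues besides blood. The control genotype holds no Cre, so effects of Cre and of Brd9 loss cannot be told apart. The cells are lineage-negative cells of femora and tibiae in the labels, which describe transplant recipients, whereas the series design and the study's methods describe primary mice, and the methods add a sort for the progenitor receptor c-Kit. The labels do not say that libraries of a group came from separate animals, and p-values then measure only the spread between these libraries.

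TNF superfamily ligands are mostly trimeric proteins made at the cell surface, and many are also shed in soluble form. Their receptors fall into groups by what they bind inside the cell. Receptors with a death domain can recruit FADD or TRADD and lead to caspase activation, TRAF-binding receptors signal to the canonical or the alternative NF-kB pathway, and decoy receptors bind a ligand without passing on its full signal. In marrow the superfamily is known for the survival of B cells and plasma cells (APRIL and BAFF), for osteoclast formation (RANKL), for T cell costimulation and for effects of TNF itself on hematopoietic stem cells.

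The libraries held between 21151031 and 28500168 expected counts. The targeted gene Brd9 was at 15.6, 13.5 and 21.03 CPM (read counts scaled to the library total, with factors from the trimmed mean of M-values, TMM) in Brd9 KO and at 45.9, 49.1 and 52.1 CPM in control. All Brd9 KO libraries lay below all control libraries, and 34.1% of the control level was left. By the quasi-likelihood test of edgeR, which gives every adjusted p below unless another tool is named, the log2 fold change was -1.56 ± 0.17 (SE, adjusted p = 0.00345). Permuting the labels of the 6 libraries (exact, two-sided) gave p = 0.1 for Brd9, the smallest that 3 against 3 libraries allow. The deposited values count the gene as a whole, so reads outside the deleted exons are included. Brd9 KO replicate 3 stood apart from the other Brd9 KO libraries on the second principal component of all genes tested, and its summed level of 10 neutrophil markers was 7811 CPM, against 1199 and 1352 CPM in the other Brd9 KO libraries and 3198, 1722 and 2146 CPM in control. Without that library, 2 members that were not called otherwise, Tnfsf13b and Tnfrsf1a, were called lower, and 18 of the 24 members not called had a log2 fold change that turned its sign or differed in size by over 1.5 times. The cells expressed all 8 progenitor markers examined, of which Gata2 was called higher and Mpo, the myeloperoxidase of myeloid progenitors, was called lower. Mpo alone was at 5073, 5378 and 5292 CPM in Brd9 KO and at 10870, 10570 and 9507 CPM in control, and it carries the sum of the 8 markers. The other 7 markers summed to 2151, 2039 and 1972 CPM in Brd9 KO and 1665, 1496 and 1627 CPM in control, a sum chosen after seeing the data.

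Of the 41 members, 31 passed the filter on low counts and were tested, 10 ligands and 21 receptors. Genes were called at an adjusted p under 0.1, the study's threshold, after Benjamini-Hochberg adjustment over all 12953 genes tested. By this rule 15.4% of all genes tested were called, 9.19% higher and 6.25% lower in Brd9 KO. Among the members 5 were called higher (16.1%), namely Tnfsf14, Tnfsf12, Tnfrsf18, Tnfrsf25 and Tnfrsf19, and 2 were called lower (6.45%), namely Cd27 and Tnfsf13. Of these, Tnfrsf19 passed the filter through its Brd9 KO libraries alone. The other 24 tested members were not called. The median log2 fold change of the tested members was 0.07, against 0.02 over all genes tested. These shares and medians describe the members and were not tested against the other genes. In bulk samples, fewer cells of a type and less RNA per cell cannot be told apart.

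**Figure D1:**
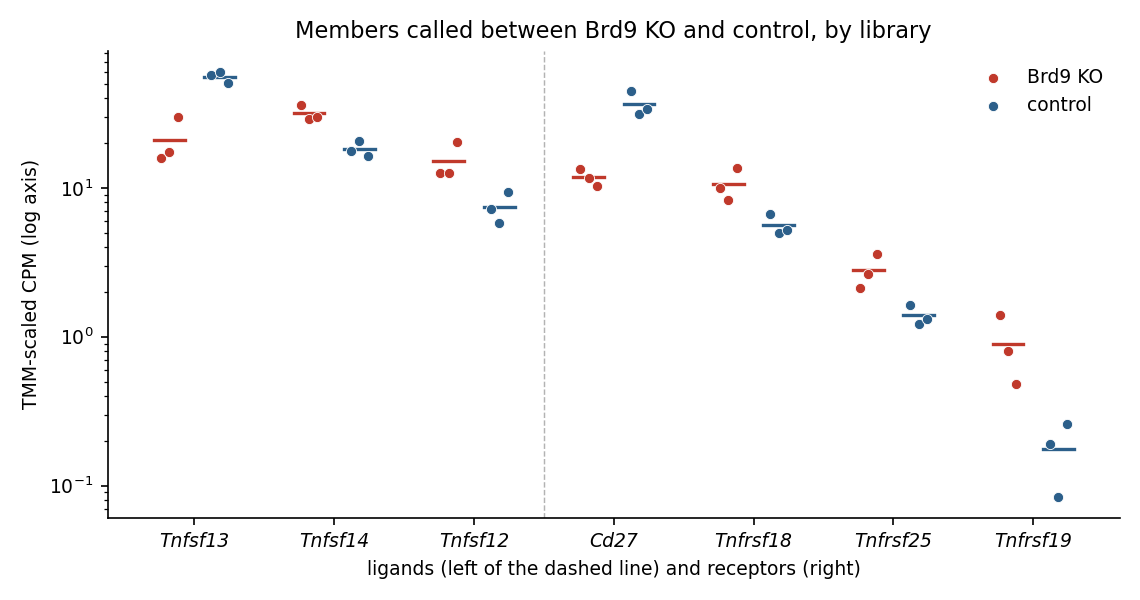
TMM-scaled CPM (log axis) of the 7 called members in each library, ligands on the left and receptors on the right, with Brd9 KO in red left of control in blue and a bar at the mean of 3 libraries. The groups do not overlap for any of the 7 genes. Tnfsf13 and Cd27 are lower in Brd9 KO and the other 5 genes are higher.

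The promoters of 4 called members are shown first, since these are the called members with a single annotated start in the RefSeq promoter table (build GRCm38.p6, the same coordinates as mm10). The table held a window of 250 bases before and 50 bases after the start for 31 of the 41 members. Each window is printed 5′ to 3′ on the gene's strand. Capitals mark letters that match, on either strand, the NF-kB motif, the PU.1 core GAGGAA or the core letters of the CTCF motif, AGGNGGC, and lower case marks the rest.

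Cd27, chr6:125236978-125237277, minus strand: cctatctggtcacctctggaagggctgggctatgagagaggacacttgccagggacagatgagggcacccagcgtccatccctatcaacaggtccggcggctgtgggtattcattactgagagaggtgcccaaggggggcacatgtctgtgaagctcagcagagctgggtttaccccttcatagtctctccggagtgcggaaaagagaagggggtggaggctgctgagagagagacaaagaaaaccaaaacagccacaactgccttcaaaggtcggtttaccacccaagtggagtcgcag
Tnfsf13, chr11:69685505-69685804, minus strand: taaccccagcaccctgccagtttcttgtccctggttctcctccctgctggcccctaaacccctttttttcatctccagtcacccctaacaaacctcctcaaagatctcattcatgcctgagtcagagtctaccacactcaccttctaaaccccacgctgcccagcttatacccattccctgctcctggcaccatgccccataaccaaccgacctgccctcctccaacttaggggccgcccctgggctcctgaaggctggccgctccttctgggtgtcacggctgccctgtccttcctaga
Tnfsf14, chr17:57194132-57194431, minus strand: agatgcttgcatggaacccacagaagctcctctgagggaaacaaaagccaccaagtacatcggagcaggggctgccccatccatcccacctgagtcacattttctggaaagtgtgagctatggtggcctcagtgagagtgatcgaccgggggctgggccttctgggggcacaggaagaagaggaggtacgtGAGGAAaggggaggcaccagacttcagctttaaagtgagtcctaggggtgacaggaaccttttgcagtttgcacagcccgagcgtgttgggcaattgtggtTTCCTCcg
Tnfrsf18, chr4:156026072-156026371, plus strand: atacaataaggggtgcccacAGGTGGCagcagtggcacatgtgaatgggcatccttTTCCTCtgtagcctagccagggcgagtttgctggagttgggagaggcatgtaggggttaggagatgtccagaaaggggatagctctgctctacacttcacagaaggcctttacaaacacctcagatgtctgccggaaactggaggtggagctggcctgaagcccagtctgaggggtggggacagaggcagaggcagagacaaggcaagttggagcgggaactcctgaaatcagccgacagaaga

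The windows of the genes that fell, Cd27 and Tnfsf13, held no match to any of the 3 motifs. For Tnfsf13 and Tnfrsf18 the RefSeq start lies inside the gene of the GENCODE annotation (chr11:69682846-69685784 and chr4:156026164-156028895). Most of each of these 2 windows therefore falls within the gene, and the bases before its GENCODE start were largely not searched. The Tnfsf14 window held 2 PU.1 core matches, starting 59 bases before and at base 43 after the start. The Tnfrsf18 window held 1 CTCF core match 230 bases before the start and 1 PU.1 core match 194 bases before it. Tnfrsf25, which has 2 annotated starts, held 2 NF-kB motif matches, 1 PU.1 core match and 2 CTCF core matches around the second start, where an NF-kB match overlaps both CTCF core matches, and no match around the first. Tnfrsf19, also with 2 starts, held 1 PU.1 core match at one start and 1 CTCF core match at the other. Such matches are common. The NF-kB motif was found in 8.46% of all 32851 windows, the PU.1 core in 28.3% and the CTCF core in 29.4%, and over the 35 windows of the members the shares were 11.4%, 34.3% and 40.0%. A match is a description of letters and no binding was measured in these data.

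Among the ligands, Tnfsf13 fell and Tnfsf14 and Tnfsf12 rose in Brd9 KO, and the other 7 tested ligands were not called. Tnfsf13, which encodes APRIL, a ligand that sustains plasma cells through the receptors TACI and BCMA, was at 15.8, 17.4 and 30.0 CPM in Brd9 KO and at 57.1, 60.0 and 50.2 CPM in control. Every Brd9 KO library lay below every control library, and the highest Brd9 KO value came from replicate 3. Its log2 fold change was -1.41 ± 0.23 (SE, adjusted p = 0.0146). The call held under each of the 17 alternatives tried, with log2 fold changes between -1.75 and -1.20. Tnfsf13 had the highest mean TPM of the ligands over all libraries (33.0 TPM, a relative abundance that takes transcript length into account), at 19.7 ± 4.33 TPM in Brd9 KO and 46.3 ± 7.08 TPM in control (SD, n = 3 each).

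Tnfsf14, which encodes LIGHT, a ligand of the receptors HVEM and LTBR, was at 36.0, 29.2 and 29.9 CPM in Brd9 KO and at 17.7, 20.8 and 16.4 CPM in control. The groups did not overlap and the level was 1.74-fold higher in Brd9 KO (log2 fold change 0.80 ± 0.14, SE, adjusted p = 0.0167). The call held under all 17 alternatives, with log2 fold changes between 0.70 and 1.01. By mean TPM, Tnfsf14 was the most abundant ligand in Brd9 KO at 27.2 ± 5.25 TPM, with Tnfsf13 at 19.7 ± 4.33 TPM (SD). In Brd9 KO replicate 3 the order was reversed, with Tnfsf13 at 24.4 TPM and Tnfsf14 at 21.5 TPM. In control, Tnfsf13 was the most abundant ligand.

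Tnfsf12, which encodes TWEAK, the ligand of the receptor FN14, was at 12.6, 12.6 and 20.2 CPM in Brd9 KO and at 7.23, 5.82 and 9.35 CPM in control. All Brd9 KO libraries lay above all control libraries, again with replicate 3 the highest of the Brd9 KO libraries. This is a log2 fold change of 1.01 ± 0.25 (SE, adjusted p = 0.0509). Without control replicate 1 the adjusted p was 0.138, and without control replicate 2 it was 0.146, so that this call rests on both libraries.

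Tnfsf12 and Tnfsf13, which moved in opposite directions, are neighbours on the minus strand of chromosome 11 (mm10), Tnfsf13 at chr11:69682846-69685784 and Tnfsf12 at chr11:69686250-69695849, with 465 bases between them. A joint gene, Tnfsfm13, spans both and shares 60.0% of the exon bases of Tnfsf13 and 48.3% of those of Tnfsf12, and the expected counts of both genes were not whole in any of the 6 libraries, which shows that reads were divided between transcripts. Tnfsfm13 itself was at 3.48, 2.15 and 3.76 CPM in Brd9 KO and at 1.89, 2.15 and 1.25 CPM in control, with a log2 fold change of 0.82 ± 0.31 (SE) and an adjusted p of 0.139. All Tnfsfm13 counts were also given to 1 neighbour, a choice made after seeing the data. This could turn neither direction, since Tnfsfm13 had fewer reads than either neighbour and its own log2 fold change was above 0. The other division, in which reads counted for Tnfsf12 or Tnfsf13 belong to Tnfsfm13, was not examined. Tnfsf12 with Tnfsfm13 had a log2 fold change of 0.98 (adjusted p = 0.0358), and Tnfsf13 with Tnfsfm13 had one of -1.25 (adjusted p = 0.0171). Counted as 1 locus, the 3 genes were at 31.9, 32.2 and 54.0 CPM in Brd9 KO and at 66.2, 68.0 and 60.8 CPM in control, a log2 fold change of -0.73 ± 0.20 (SE, adjusted p = 0.0708). The antisense gene Tnfsf13os overlaps 13.5% of the exon bases of Tnfsf13, and the sources differ on whether the libraries kept the strand, so reads from it cannot be told apart from those of Tnfsf13.

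The most abundant ligands that were not called were Ltb, Tnf and Tnfsf9. Ltb, which encodes the membrane partner of lymphotoxin alpha, was at 7.69, 5.89 and 13.0 CPM in Brd9 KO and at 11.7, 7.42 and 10.6 CPM in control. Tnf, the founding member of the family, was at 4.05, 3.56 and 7.04 CPM in Brd9 KO and at 7.23, 4.39 and 5.67 CPM in control. Tnfsf9, which encodes 4-1BBL, a T cell costimulatory ligand, was at 3.76, 2.58 and 4.34 CPM in Brd9 KO and at 3.48, 2.66 and 3.79 CPM in control. For all 3 genes the groups overlapped, and Brd9 KO replicate 3 was the highest of the Brd9 KO libraries. The log2 fold change of Ltb was -0.17 (95% interval -0.88 to 0.54), that of Tnf was -0.25 (-0.96 to 0.47) and that of Tnfsf9 was 0.10 (-0.50 to 0.70), so that sizeable changes in either direction were not detectable at this depth and spread. Without Brd9 KO replicate 3 the log2 fold change of Ltb was -0.55 (adjusted p = 0.13), that of Tnf was -0.60 (adjusted p = 0.122) and that of Tnfsf9 was -0.07.

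The remaining tested ligands were Tnfsf10, which encodes TRAIL, Tnfsf13b, which encodes BAFF, Fasl and Tnfsf8, which encodes CD30L. Their groups overlapped and their log2 fold changes lay between -0.56 (Tnfsf8) and 0.79 (Fasl). Without Brd9 KO replicate 3 these were -0.29 for Tnfsf8 and 0.42 for Fasl. Tnfsf13b, which sustains B cells, depended on 1 library. It was at 0.614, 0.873 and 3.76 CPM in Brd9 KO and at 1.63, 1.77 and 2.13 CPM in control, so that Brd9 KO replicate 3 was above all control libraries and the other Brd9 KO libraries were below all of them. With all libraries the log2 fold change was -0.11 ± 0.62 (SE, adjusted p = 0.926), and without Brd9 KO replicate 3 it was -1.30 (adjusted p = 0.0315). The neutrophil marker sums given above set the same library apart, and their part in the Tnfsf13b value was not tested.

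Markers of several other cell types also differed between the groups. Of 6 eosinophil markers, 5 were called higher and 1 lower, with sums of 3786, 3712 and 7218 CPM in Brd9 KO and 2279, 1722 and 1974 CPM in control that are mostly Prg2, and without Prg2, a choice made after seeing the data, the sums overlapped. Of 7 basophil and mast cell markers, 5 were called higher, with sums of 3957, 3476 and 5279 CPM in Brd9 KO and 2625, 2064 and 2686 CPM in control. Of 8 macrophage markers tested, 4 were called higher and 2 lower, with sums that overlapped. Without Vcam1, itself called lower and left out after seeing the data, the macrophage sums lay above control. Of 8 endothelial markers 6 were called higher, of which Cldn5 passed the filter on low counts through its Brd9 KO libraries alone. The endothelial sums were 208, 193 and 174 CPM in Brd9 KO and 136, 120 and 132 CPM in control. They are mostly Pecam1, which was left out next, after seeing the data. Without it they were 19.1, 20.8 and 15.05 CPM in Brd9 KO and 10.4, 12.1 and 9.57 CPM in control. Of 8 dendritic cell markers tested, all had a log2 fold change below 0 (median -0.35) and 1, Cd209a, was called lower. Of 5 plasma cell markers tested, none was called. Of 6 osteoblast markers tested, 3 were called higher, of which Sp7 passed the filter through its Brd9 KO libraries alone. The dendritic cell, plasma cell and osteoblast sums overlapped between the groups. The part of these cell types in the values of the ligands was not tested.

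The other 7 ligands were too low to be tested. Tnfsf4, which encodes OX40L, had 2, 0 and 0 reads in Brd9 KO and 6, 3 and 10 reads in control. Tnfsf15, which encodes TL1A, had 4, 6 and 0 reads in Brd9 KO and 8, 10 and 16 reads in control. For both genes every Brd9 KO library had a lower CPM than every control library, and without the filter on low counts neither was called in edgeR, with adjusted p-values of 0.119 for Tnfsf4 and 0.189 for Tnfsf15. Lta, Tnfsf11 (RANKL) and Cd40lg had between 0 and 12 reads in a library, and their groups overlapped. Cd70 and Tnfsf18 (GITRL) had no read in any of the 6 libraries, which allows up to 3 reads per library, or 0.109 to 0.145 CPM, by counting error alone.

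**Figure D2:**
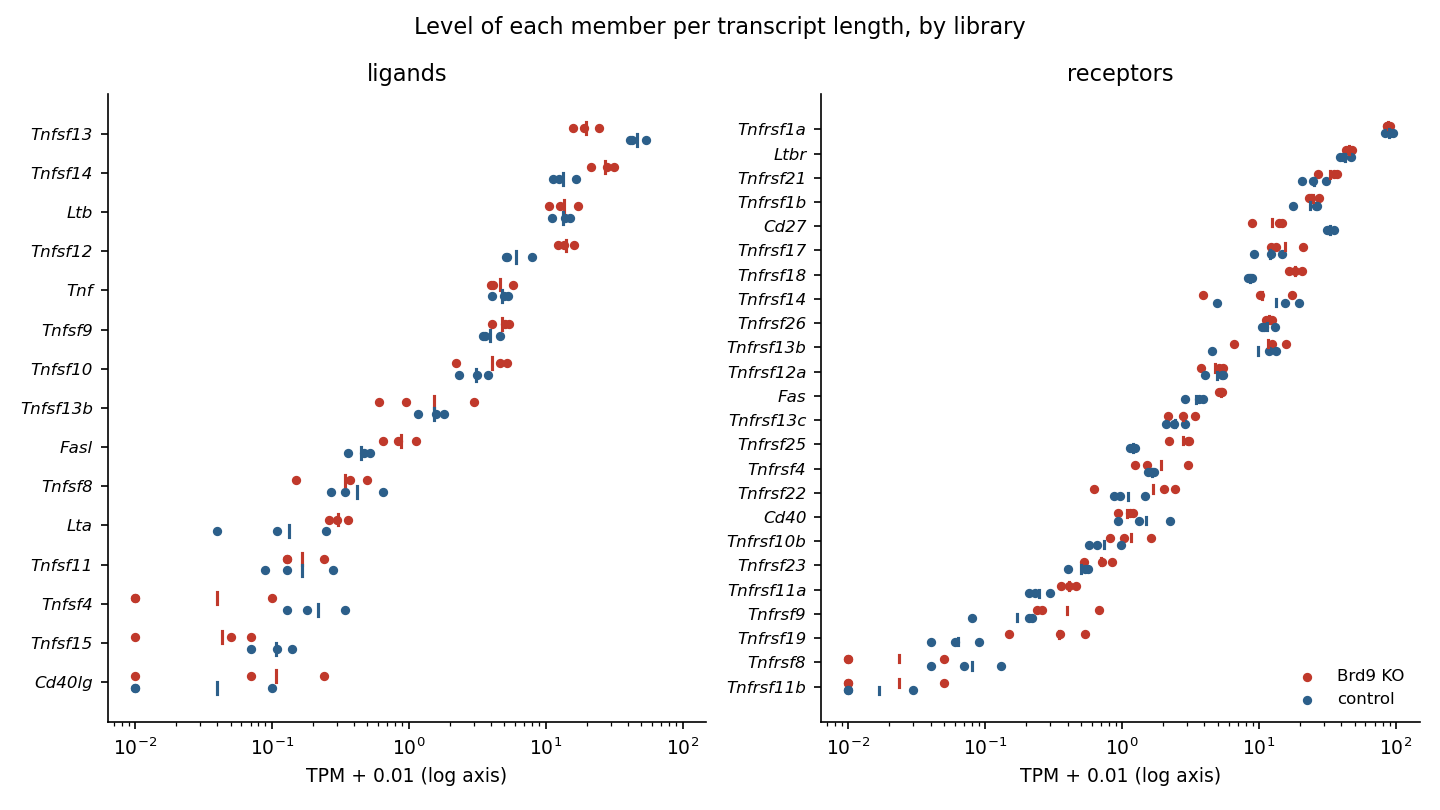
TPM of each member with at least 1 read in any library, plotted as TPM + 0.01 on a log axis, with ligands in the left panel and receptors in the right panel, sorted by their mean, Brd9 KO in red above control in blue, 1 point per library and a tick at each mean. Tnfrsf1a, at 87.8 TPM in Brd9 KO and 89.6 TPM in control, is the most abundant receptor in both groups. The ligand with the highest mean is Tnfsf14 in Brd9 KO and Tnfsf13 in control, but in Brd9 KO replicate 3 Tnfsf13 lies above Tnfsf14.

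By TPM the means over all libraries ran from 0.01 TPM (Tnfrsf11b) to 88.7 TPM (Tnfrsf1a) among the members with a read. Of the 41 members, 7 had a mean over all libraries of at least 20 TPM, 18 had a mean from 1 to 20 TPM and 16 had a mean under 1 TPM. Receptors were the larger share of the abundant members, with 5 receptors and 2 ligands at or above 20 TPM. In Brd9 KO the order of the receptors was Tnfrsf1a at 87.8 ± 3.12 TPM, Ltbr at 45.3 ± 2.46 TPM, Tnfrsf21 at 33.0 ± 5.24 TPM, Tnfrsf1b at 25.02 ± 2.27 TPM and Tnfrsf18 at 18.5 ± 2.01 TPM (SD, n = 3 each). In control it was Tnfrsf1a at 89.6 ± 5.33 TPM, Ltbr at 42.3 ± 4.20 TPM, Cd27 at 32.9 ± 2.35 TPM, Tnfrsf21 at 25.3 ± 5.07 TPM and Tnfrsf1b at 23.6 ± 4.93 TPM. Tnfrsf1a and Ltbr held the first places in both groups, Cd27 was at 12.5 ± 3.11 TPM in Brd9 KO, and the control levels of Tnfrsf21 and Tnfrsf1b did not differ beyond their spread. In Brd9 KO, Tnfrsf17 at 15.5 ± 4.70 TPM did not differ from Tnfrsf18 beyond its spread, and in replicate 3 it was above Tnfrsf18. The summed TPM of the 24 receptors was 294, 315 and 276 in Brd9 KO and 253, 316 and 293 in control, and that of the 17 ligands was 89.4, 87.2 and 97.4 in Brd9 KO and 85.2, 102 and 95.2 in control. Both sums overlapped between the groups.

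Among the TRAF-binding receptors, Cd27 fell and Tnfrsf18 and Tnfrsf19 rose, and the other 11 of 14 tested were not called. Cd27, the receptor of CD70, is carried by T cells and NK cells and also marks hematopoietic progenitors with lymphoid potential. It was at 13.4, 11.6 and 10.2 CPM in Brd9 KO and at 44.5, 31.5 and 34.0 CPM in control. All Brd9 KO libraries, replicate 3 included, lay well below the lowest control library. Cd27 had the lowest adjusted p of the members, 0.00323, and a log2 fold change of -1.64 ± 0.17 (SE, 95% interval -2.04 to -1.25). The call held under all 17 alternatives, with log2 fold changes between -1.74 and -1.36. The sum of 8 T cell markers was 78.3, 56.1 and 90.6 CPM in Brd9 KO and 63.2, 38.3 and 42.3 CPM in control, and that of 9 B cell markers was 70.0, 68.2 and 135 CPM in Brd9 KO and 87.1, 87.7 and 101 CPM in control. The B cell sum is mostly Cd79a and Cd79b. Of the 7 B cell markers tested, none was called higher and 1, Vpreb1, was called lower, 4 lay below control in all Brd9 KO libraries, and their median log2 fold change was -0.60. The sum of 7 NK cell markers was 156, 147 and 206 CPM in Brd9 KO and 320, 281 and 250 CPM in control, with 4 of the 7 called higher and 1, Nkg7, called lower. Without Nkg7, a choice made after seeing the data, that sum was 27.7, 25.3 and 44.2 CPM in Brd9 KO and 14.0, 13.5 and 19.2 CPM in control. The part of these cell types in the Cd27 result was not tested.

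Tnfrsf18, which encodes GITR, a costimulatory receptor best known from regulatory T cells, was at 9.94, 8.26 and 13.6 CPM in Brd9 KO and at 6.66, 4.98 and 5.23 CPM in control. The groups did not overlap, and by TPM they were further apart, at 18.5 ± 2.01 TPM in Brd9 KO and 8.56 ± 0.27 TPM in control (SD, n = 3 each). On the CPM scale Tnfrsf18 rose by 0.91 ± 0.23 (log2, SE), at an adjusted p of 0.0518. Without Brd9 KO replicate 1, control replicate 2 or control replicate 3 the adjusted p was 0.134, 0.151 and 0.146 in turn, so that the call rests on each of these libraries. The antisense gene Gm16008 overlaps 27.2% of the exon bases of Tnfrsf18, and reads of the pair cannot be told apart if the strand was not kept.

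Tnfrsf19, which encodes TROY, a receptor known from the nervous system and from epithelial stem cells, was at 1.39, 0.80 and 0.482 CPM in Brd9 KO and at 0.189, 0.0843 and 0.258 CPM in control. These values rest on 34, 22 and 10 reads in Brd9 KO and on 5, 2 and 7 reads in control. No control library reached the filter's minimum of 0.405 CPM, so the gene was tested only because its level was above that minimum in Brd9 KO. The fitted log2 fold change of 2.29 ± 0.54 (SE) had an adjusted p of 0.0436. The call was lost on the log2(TPM + 1) scale (adjusted p = 0.13) and without Brd9 KO replicate 1 (0.145), control replicate 1 (0.121) or control replicate 2 (0.13). Beside it, 8 of 10 tested markers of mesenchymal stroma were called higher in Brd9 KO. Of these 8, the genes Pdgfra, Col3a1 and Dcn reached the filter minimum in no control library and were tested through Brd9 KO alone. Their summed level over all 11 markers was 134, 153 and 99.5 CPM in Brd9 KO and 36.7, 34.5 and 52.0 CPM in control, with none of the defining markers at 0 in all control libraries, and the part of such cells in the Tnfrsf19 value was not tested.

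Among the TRAF-binding receptors that were not called, Ltbr, the receptor of lymphotoxin alpha-beta trimers and of LIGHT, was the most abundant. It was at 58.0, 56.2 and 67.8 CPM in Brd9 KO and at 68.9, 66.5 and 61.2 CPM in control. The groups overlapped, and the log2 fold change was -0.11 (95% interval -0.36 to 0.14). Tnfrsf11a, which encodes RANK, the receptor of the osteoclast factor RANKL, was at 1.47, 1.2 and 1.4 CPM in Brd9 KO and at 0.908, 1.05 and 0.847 CPM in control. Its groups did not overlap, but its log2 fold change of 0.53 ± 0.25 (SE) had an adjusted p of 0.219 and was not called. Tnfrsf8, which encodes CD30, was not tested and had 0, 1 and 0 reads in Brd9 KO and 2, 3 and 1 reads in control, all at or under the level that 3 reads represent. Tnfrsf9, which encodes 4-1BB, was not tested either, with 3 to 22 reads in a library and overlapping groups. The other 9 tested receptors of this class were Tnfrsf1b (TNFR2), Tnfrsf4, Tnfrsf12a, Tnfrsf13b, Tnfrsf13c, Tnfrsf14, Tnfrsf17, Cd40 and Tnfrsf26, an orphan receptor of the mouse that was counted here without a known signal. They had overlapping groups and log2 fold changes between -0.68 (Cd40) and 0.20 (Tnfrsf17). The B cell receptors Tnfrsf13b (TACI), Tnfrsf13c (BAFFR) and Tnfrsf17 (BCMA) were among them, with log2 fold changes of 0.02, 0.01 and 0.20. Without Brd9 KO replicate 3 these were 0.22, -0.31 and -0.25, and those of Tnfrsf4 and Tnfrsf14 were -0.60 and -0.25 in place of 0.07 and -0.58, with none of the 5 called.

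Among the death domain receptors, Tnfrsf25 rose and the other 4 were not called. Tnfrsf25, which encodes DR3, the TL1A receptor of T cells, was at 2.13, 2.66 and 3.62 CPM in Brd9 KO and at 1.63, 1.22 and 1.33 CPM in control. The groups did not overlap, but the gap between the lowest Brd9 KO and the highest control library was small. Its log2 fold change was 1.0 ± 0.28 (SE, adjusted p = 0.0684). Of all called members its call was lost most often, with an adjusted p of 0.109 to 0.18 when any library other than Brd9 KO replicate 3 was left out. Of the 8 T cell markers, 1 was called higher (Cd4) and the others were not called. The marker sums of T cells, which are mostly Lat, overlapped between the groups with and without Lat. The part of T cells in the Tnfrsf18 and Tnfrsf25 values was not tested.

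Fas, the receptor of FASL and a prototype death receptor, was at 4.09, 3.78 and 5.06 CPM in Brd9 KO and at 2.76, 2.91 and 3.28 CPM in control. The groups did not overlap, yet the log2 fold change of 0.53 ± 0.21 (SE) had an adjusted p of 0.150 and was not called. Tnfrsf1a, the main receptor of TNF, was at 115, 111 and 140 CPM in Brd9 KO and at 153, 138 and 139 CPM in control. Brd9 KO replicates 1 and 2 lay below the control libraries and replicate 3 lay among them. With all libraries its log2 fold change was -0.24 ± 0.12 (SE, adjusted p = 0.234), and with replicate 3 of Brd9 KO left out it was -0.35 (adjusted p = 0.0557). On the TPM scale this receptor differed less, with a log2 fold change of -0.03 for log2(TPM + 1). Tnfrsf21, which encodes DR6, was at 81.6, 78.5 and 77.2 CPM in Brd9 KO and at 65.8, 78.5 and 66.7 CPM in control, with a log2 fold change of 0.17 ± 0.10 (SE, adjusted p = 0.327). Tnfrsf10b, the receptor through which TRAIL kills in the mouse, was at 1.32 to 3.02 CPM over the 6 libraries, with overlapping groups.

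Among the decoy receptors, Tnfrsf22 and Tnfrsf23, which bind TRAIL in the mouse, were tested and were not called. They lie side by side on chromosome 7 and share reads, since the expected counts of both were not whole in 5 of the 6 libraries. Counted together they were at 3.89, 4.47 and 3.18 CPM in Brd9 KO and at 2.99, 3.54 and 2.69 CPM in control, with a log2 fold change of 0.33 ± 0.22 (SE, adjusted p = 0.368). Tnfrsf11b, which encodes osteoprotegerin, the soluble decoy of RANKL, had at most 2 reads in a library and was not tested.

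**Figure D3:**
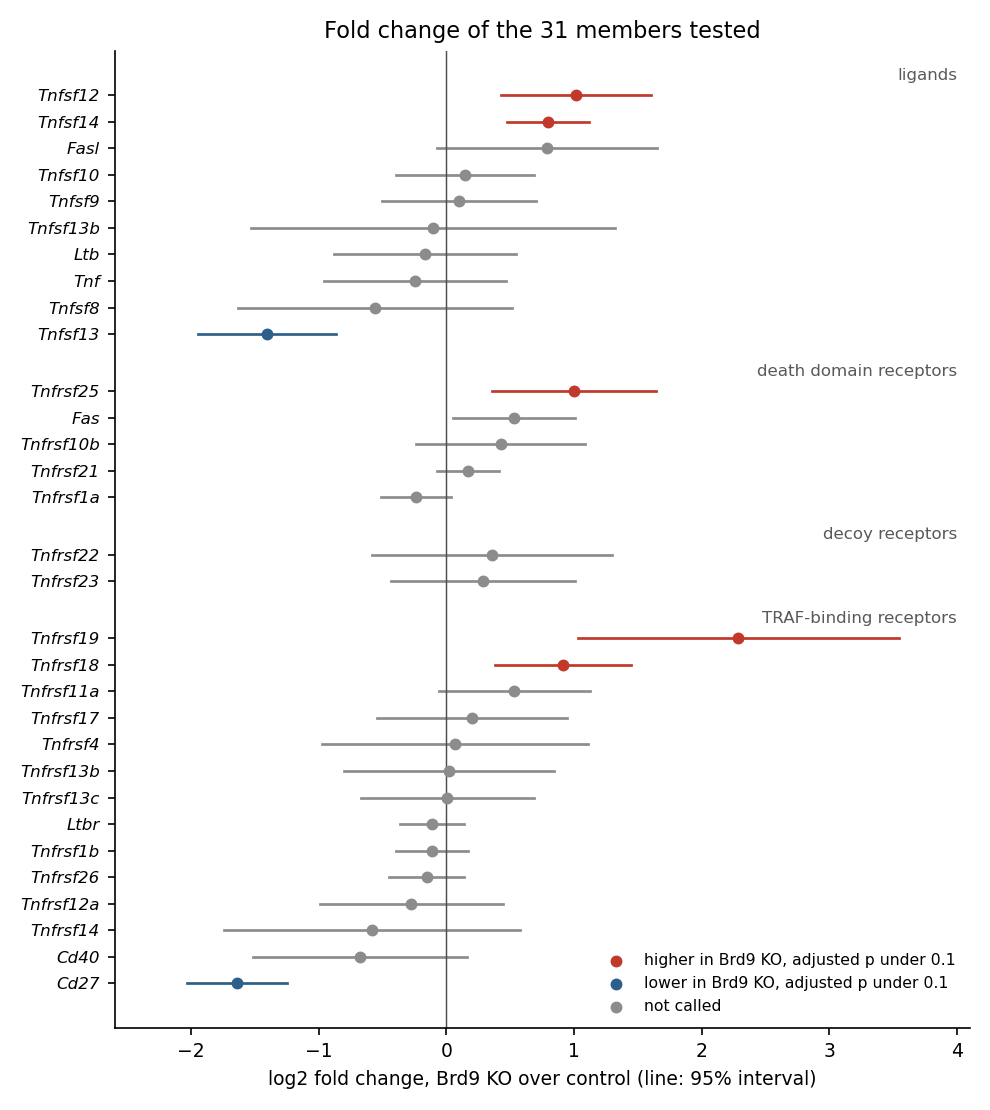
Fold change (log2, Brd9 KO over control) of the 31 tested members, sorted within ligands, death domain receptors, decoy receptors and TRAF-binding receptors, with 95% intervals as lines, members called higher in red, members called lower in blue and the others in grey. The 7 called members run from Cd27 at -1.64 to Tnfrsf19 at 2.29, whose interval is among the widest, and the grey intervals cover 0 except that of Fas.

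Over the 31 tested members the groups did not overlap for 9, of which 7 were above and 2 below control, and they overlapped for 22. Over all genes tested 33.5% had groups that did not overlap. The 9 genes were the 7 called members with Fas and Tnfrsf11a.

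Ligands and their receptors were next set side by side. There were 24 textbook ligand and receptor pairs among the members, of which 13 had both sides tested in edgeR. The other pairs could not have both sides called there. None of the 24 had both sides called by edgeR, DESeq2 or limma-voom (and none had both at an unadjusted p under 0.05 in any of these). In edgeR 8 had 1 side called and 16 had neither. On log2(TPM + 1) and on log2(TPM + 0.1), 1 pair had both sides at an unadjusted p under 0.05, and no pair had both called. TWEAK and its receptor are an example, in that Tnfsf12 rose by 1.01 on the log2 scale while Tnfrsf12a (FN14) had a log2 fold change of -0.28 (adjusted p = 0.593), or -0.54 without Brd9 KO replicate 3. For Tnfsf14 the receptors Ltbr and Tnfrsf14 (HVEM) had log2 fold changes of -0.11 (adjusted p = 0.532) and -0.58 (adjusted p = 0.479), and for Tnfsf13 the receptors Tnfrsf13b and Tnfrsf17 had 0.02 (adjusted p = 0.974) and 0.20 (adjusted p = 0.714). On the receptor side, Cd27 and Tnfrsf18 were called while their ligands Cd70 and Tnfsf18 had no read in any library, and Tnfrsf25 was called while its ligand Tnfsf15 had at most 16 reads in a library. These reads come from the sorted or enriched marrow cells alone, and ligands made by other cells were not measured.

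**Figure D4:**
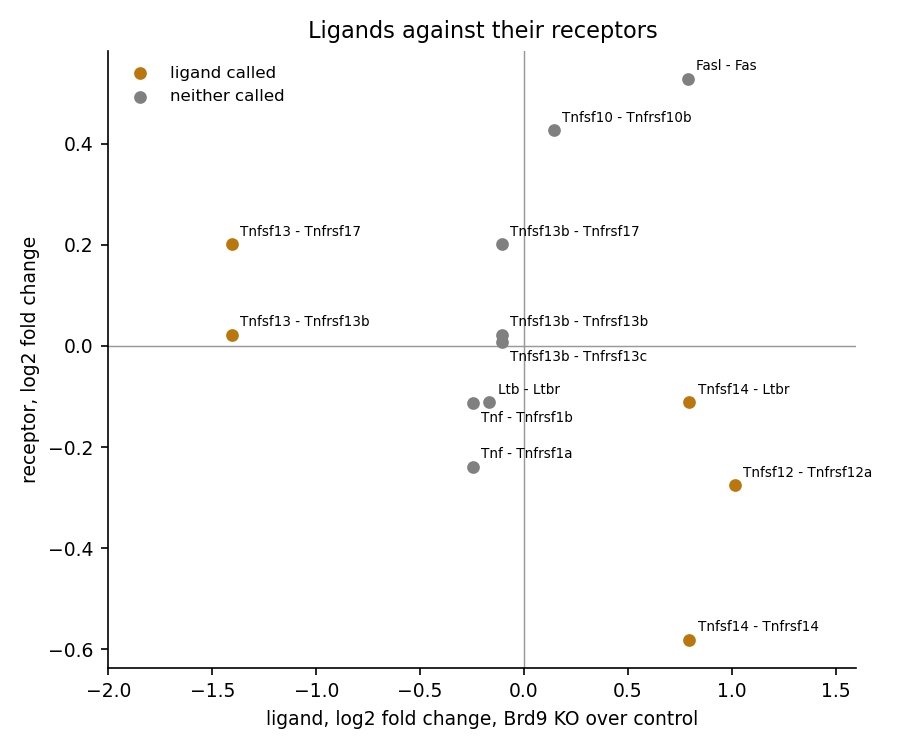
Fold change (log2, Brd9 KO over control) of the ligand (x axis) and of its receptor (y axis) for the 13 pairs in which both were tested, with pairs whose ligand was called in orange and pairs with neither called in grey. The orange pairs lie far from 0 along the ligand axis, at -1.41, 0.80 and 1.01, and the receptors of all 13 pairs lie between -0.58 (Tnfrsf14) and 0.53 (Fas).

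Many members sit in genomic clusters, and called members were found beside members that were not called. With at most 100 kb between neighbours, 22 of the 41 members fell into 9 clusters (mm10, GENCODE annotation). On chromosome 6, Cd27 (chr6:125232622-125237010, minus strand), Ltbr (chr6:125306571-125313885, minus strand) and Tnfrsf1a (chr6:125349362-125362484, plus strand) are neighbours. Cd27 fell by 1.64 on the log2 scale, whereas Ltbr had a log2 fold change of -0.11 and Tnfrsf1a one of -0.24, neither called. On chromosome 17, Tnfsf14 (chr17:57189492-57194177, minus strand) rose by 0.80 on the log2 scale, Tnfsf9 (chr17:57105325-57107757) had a log2 fold change of 0.10 and Cd70 between them had no read. On chromosome 4, Tnfrsf18 (chr4:156026164-156028895, plus strand) rose by 0.91 on the log2 scale, and its neighbour Tnfrsf4 (OX40), 9551 bases away, had a log2 fold change of 0.07 (adjusted p = 0.935) with a 95% interval of -0.97 to 1.11. In the lymphotoxin cluster of chromosome 17, Ltb and Tnf were not called and Lta was not tested. The differences between neighbours were not tested.

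The genes that carry the signal from these receptors were taken as a list of 53 adaptors, ubiquitin ligases and editors, kinases, NF-kB subunits and inhibitors, death effectors and processing enzymes. All 53 were tested, and 6 were called higher and 1 lower (13.2%, against 15.4% of all genes tested), with a median log2 fold change of 0.08, against 0.02 over all genes. The 4 genes called higher with the smallest p were Map3k5, Rhbdf2, Furin and Tnfaip3. Map3k5, which encodes the stress kinase ASK1, was at 50.4, 56.6 and 57.2 CPM in Brd9 KO and at 34.9, 33.1 and 38.6 CPM in control (log2 fold change 0.62 ± 0.11, SE, adjusted p = 0.0150). Rhbdf2, which encodes iRhom2, a partner that brings the TNF sheddase ADAM17 to the surface, was at 46.5, 41.7 and 53.5 CPM in Brd9 KO and at 34.8, 30.7 and 30.3 CPM in control (0.56 ± 0.12, SE, adjusted p = 0.0351). Furin, which encodes a protease that cleaves proproteins including APRIL and TWEAK, was at 80.2, 79.0 and 75.8 CPM in Brd9 KO and at 50.8, 59.9 and 61.1 CPM in control (0.45 ± 0.10, SE, adjusted p = 0.0409). All 3 genes were above control in every Brd9 KO library.

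Tnfaip3, which encodes A20, a ubiquitin editor that restrains NF-kB and is itself an NF-kB target, was at 22.3, 21.9 and 19.8 CPM in Brd9 KO and at 15.5, 14.8 and 16.0 CPM in control (log2 fold change 0.47 ± 0.12, SE, adjusted p = 0.0484). The other genes called higher were Fadd, the adaptor of death receptors, and Cflar, which encodes c-FLIP, an inhibitor of caspase-8. Fadd was at 39.0, 37.2 and 39.6 CPM in Brd9 KO and at 31.9, 30.2 and 30.0 CPM in control (0.33 ± 0.09, SE, adjusted p = 0.0728), and Cflar had a log2 fold change of 0.40 (adjusted p = 0.0897). Among the central adaptors and the initiator caspase, Traf2 had a log2 fold change of 0.02 (adjusted p = 0.928), Tradd of -0.13 (0.601), Ripk1 of 0.11 (0.557) and Casp8 of 0.07 (0.695). The groups of these 4 genes overlapped. Of the 9 NF-kB subunits and inhibitors on the list, none was called in edgeR and 1 had an unadjusted p under 0.05, while DESeq2 called 1 of them and limma-voom none. The count of list genes called higher was 11 when Brd9 KO replicate 3 was left out, 1 when Brd9 KO replicate 1 or control replicate 2 was left out and 2 when any of the other 3 libraries was left out.

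**Figure D5:**
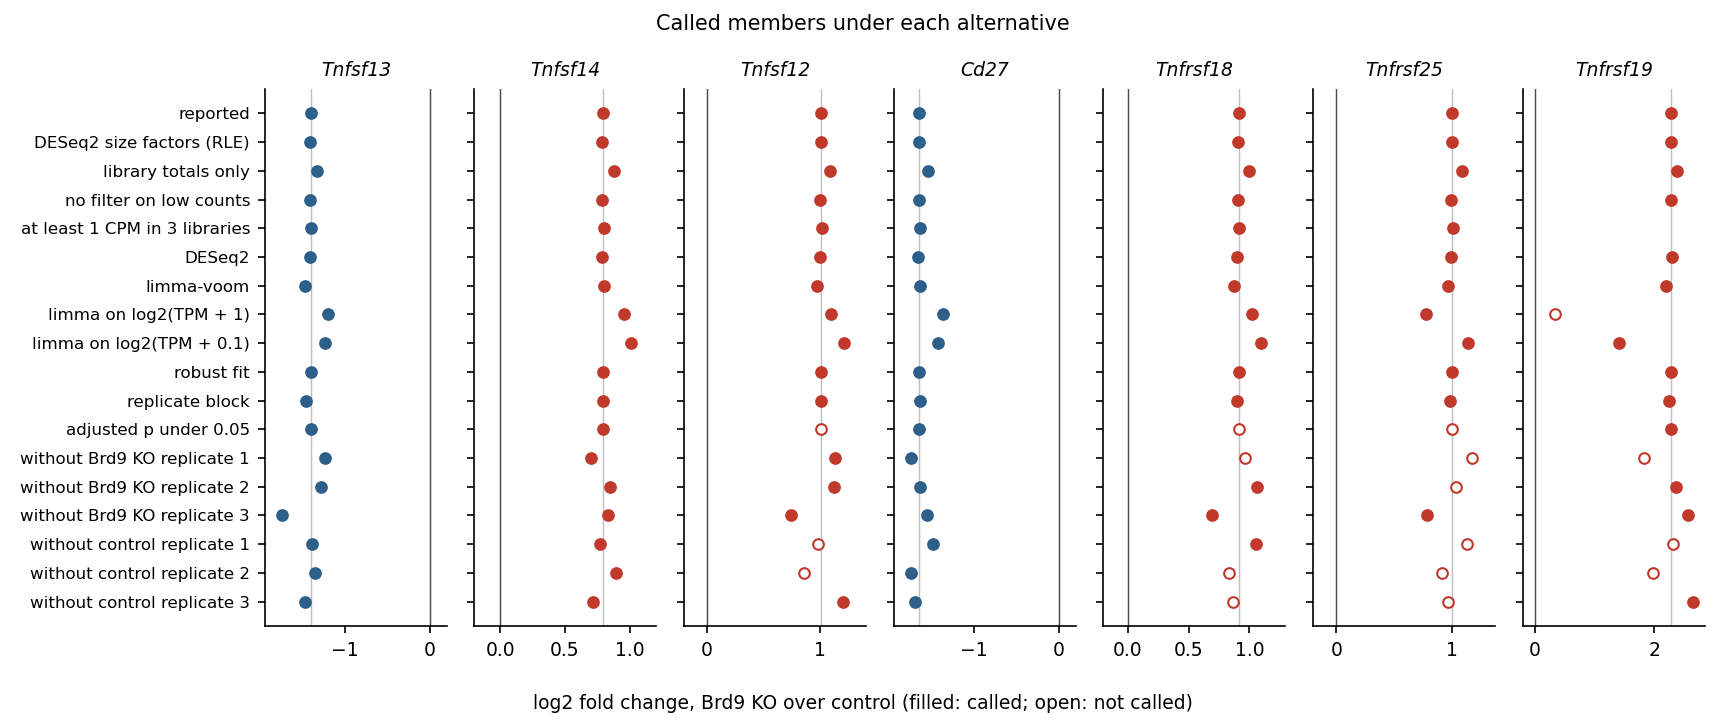
Fold change (log2, Brd9 KO over control) of each called member (columns) as reported and under each alternative (rows), red above 0 and blue below 0, filled where the member was called and open where it was not. Tnfsf13, Tnfsf14 and Cd27 are filled in every row, Tnfrsf25 is open in 6 rows, and Tnfrsf19 has no point in the row with a minimum of 1 CPM in 3 libraries.

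The calls differed in how much they depended on single libraries, as the plot of log2 fold changes by alternative shows. Cd27, Tnfsf13 and Tnfsf14 kept their call under every alternative tried. Of 17 alternatives the call was lost under 3 for Tnfsf12, under 4 for Tnfrsf18 and under 6 for Tnfrsf25, and for Tnfrsf19 it was lost under 4 of 16. No called member changed direction under these alternatives.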

How the data were processed

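RNA was poly(A)-selected per the labels, which call the libraries unstranded, while the study's methods name a stranded kit. The authors aligned reads to mm10 with STAR and quantified genes with RSEM in an nf-core pipeline, as the methods state. The deposited files hold, per gene and library, an RSEM expected count (an estimated count, not normalized, that divides shared reads) and the TPM that the authors' RSEM run computed. Expected counts were rounded, filtered with filterByExpr (minimum 0.405 CPM in 3 libraries), scaled by TMM and compared with edgeR 4.0.16 in R 4.3.3 (quasi-likelihood test, no covariate), with adjustment over all 12953 genes tested. SE was taken as the size of the log2 fold change over the square root of F. Libraries of a group differed by more than sampling noise (chi-square over its degrees of freedom, 11.1 to 84.6). TPM was used for levels between genes. Positions came from GENCODE (mm10) and promoter sequences from RefSeq. The alternatives tried were a stricter threshold, other filters and scalings, DESeq2 1.42.0, limma 3.58.1 on voom weights and on log2 TPM with a pseudocount of 1 or 0.1, a robust fit, a replicate block and leaving out each library. Named with a value in every library were Brd9, called members, members whose groups did not overlap, the 3 most abundant ligands and receptors not called, and list genes with the smallest p. A gene that this rule names is not reported here. Members, lists and tests were chosen with earlier results of these data known. Depth and counting error limit genes under about 1 CPM.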

Additional observations from a re-analysis of the deposited data

How the results depend on the processing

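The direction of all 7 called members held under other scalings, filters, tools and left-out libraries. At an adjusted p under 0.05, 1015 genes were called and 2 members were called higher. On the signalling list, DESeq2 called 2 genes lower, log2(TPM + 1) called 2 higher and 0 lower, and log2(TPM + 0.1) called 0 lower (1 gene at an unadjusted p under 0.05 on either TPM scale). When each library was left out in turn, the genes called ranged from 641 to 4150, members called higher from 1 to 5, members called lower from 2 to 4, list genes called higher from 1 to 11 and lower from 1 to 3, and the median log2 fold change of the members from -0.19 to 0.13, with the value of -0.19 and the counts of 4150 and 4 all without Brd9 KO replicate 3. Scaling shifted the median log2 fold change of all genes, to 0.10 with library totals, 0.18 with log2(TPM + 1) and 0.22 with log2(TPM + 0.1), and of all calls the part higher in Brd9 KO was 59.5% as reported, 74.1% with library totals, 83.3% with log2(TPM + 1) and 84% with log2(TPM + 0.1). The called members were the same 7 under each, except that Tnfrsf19 was not called with log2(TPM + 1).

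Whether replicate numbers pair the samples is not known. The correlations of same-numbered libraries were -0.09, 0.47 and 0.02, and with 3 libraries in a group these cannot decide it. With a replicate block, 2077 genes were called, the same 7 members were called, and 4 list genes were called higher and 1 lower. Counts of Tnfsf12, Tnfsf13 and Tnfsfm13 joined into 1 row, chosen after seeing the data, gave a log2 fold change of -0.73, opposite to Tnfsf12 alone, in a row that holds the Tnfsf13 counts as well. Genes under about 1 CPM, such as Tnfrsf19, rest on few reads.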

Other observations

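Outside the symbol rule, 3 further superfamily genes were tested (Eda, Ngfr and Relt), and none was called by edgeR, DESeq2 or limma-voom or had an unadjusted p under 0.05 in these, with log2 fold changes between 0.14 and 0.29. On log2(TPM + 1) and on log2(TPM + 0.1), 1 of them had an unadjusted p under 0.05 and none was called. Relt, the most abundant of them, was at 38.7, 39.5 and 54.8 CPM in Brd9 KO and at 38.1, 37.6 and 38.7 CPM in control. Edar and Eda2r were too low to be tested.

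Of 18 textbook NF-kB target genes, 16 were tested, of which 2 were called higher and 2 lower in Brd9 KO (25%, against 15.4% of all genes tested), with a median log2 fold change of -0.23. Il6, an inflammatory cytokine, was at 7.04, 5.31 and 9.84 CPM in Brd9 KO and at 3.07, 1.56 and 3.50 CPM in control (log2 fold change 1.44 ± 0.35, SE, adjusted p = 0.0456, edgeR). Ccl5, a chemokine of T and NK cells, had a log2 fold change of 0.85 (adjusted p = 0.0999). Cxcl2, a chemokine that attracts neutrophils, was at 0.0409, 0 and 0.241 CPM in Brd9 KO and at 0.946, 0.422 and 1.1 CPM in control (adjusted p = 0.0513), and it reached the filter minimum in no Brd9 KO library, so that it was tested through control alone. Sod2, the mitochondrial superoxide dismutase, was at 84.4, 81.3 and 85.7 CPM in Brd9 KO and at 117, 105 and 95.5 CPM in control (log2 fold change -0.33 ± 0.11, SE, adjusted p = 0.0956). Genes of this list moved in both directions.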
